A study of Homo sapiens with 16 samples.

Results

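Ribosome footprints were set against RNA, gene by gene, in young control WI-38 cells, fibroblasts from human lung that can be passaged only a limited number of times. The 4 libraries described are the 2 RNA-seq and the 2 Ribo-seq libraries labelled young and control, of 16 in the series. The RNA-seq table listed 23597 genes and the Ribo-seq table listed 19201 genes, all of which joined to an RNA row by identifier. Of the joined genes, 11166 had enough counts in both assays to be tested. Young cells were at passage 24, had been starved of serum for 24 h and then returned to full medium for 24 h, and received no heat. They are called resting here only because they were not heat shocked. The rest of the series holds heat-shocked young cells and senescent cells at passage 36. The senescent control cells, starved and refed in the same way and not heated, serve for 1 comparison. The labels number the libraries 1 and 2 but do not say whether these came from separate cultures, so p-values measure only the spread between numbered libraries. That spread was pooled over the 8 groups of all 16 libraries, heat-shocked and senescent ones included, and is not that of the young control libraries alone.

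A ribosome that is translating an mRNA shields a short stretch of it from nuclease, and sequencing the shielded stretches (Ribo-seq) counts the ribosomes on each coding sequence. The footprint level of a gene divided by its RNA level is its translational efficiency, a relative measure of how many ribosomes each copy of the mRNA carries. Cells hold particular mRNAs at low efficiency by several known routes: a protein bound to the leader (the 5′ UTR), short reading frames ahead of the main start codon, or a tract of pyrimidines at the first bases of the mRNA that makes translation respond to growth signals. Fibroblasts are known for secreting collagen and other matrix proteins and for a strong actin cytoskeleton.

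RNA-seq libraries of young control cells held 37126871 and 27278468 counts, and footprint libraries 7790636 and 9104077. The 2 footprint libraries were unusually alike. The chi-square per degree of freedom between them, over genes with at least 20 counts, was 1.73, against 17.2 to 38.7 between the replicates of the other footprint groups and 68.9 between the young RNA-seq replicates. They still differed by more than sampling noise and were kept as 2 libraries, and counts with the pair summed into 1 sample are given beside the main ones. All 12 fibroblast markers listed had a mean RNA level of at least 10 TPM. Among markers of other lung cell types, the epithelial CDH1, KRT5, SFTPC and SCGB1A1 and the endothelial CDH5 and KDR had 0 to 3 RNA counts. So had the immune PTPRC, CD3E, LYZ and ITGAM. At least 10 TPM was reached by 3 of 9 epithelial markers (KRT8, KRT18, KRT19), 1 of 5 endothelial (TEK) and 1 of 7 immune (CD68). Summed RNA of the lists was 133 and 136 TPM (epithelial), 15.68 and 15.25 (endothelial), 123 and 167 (immune) and 13153 and 12778 (fibroblast). Bulk libraries cannot tell fewer cells with an mRNA from less mRNA per cell.

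Levels are given in TPM, a level per length of the gene's template that sums to the same total in each library. The length the authors' values carry was the coding sequence for footprints and the whole transcript for RNA. The ratio is the fitted log2 of the footprint level over the RNA level, with 0 at the scaled bulk of genes, so it ranks mRNAs against each other and says nothing of total translation. A gene was called above or below the bulk at an adjusted p under 0.05 in edgeR's quasi-likelihood test and a ratio of at least 2-fold. The standard error (SE) is derived from that test and is approximate. Each ratio rests on n = 2 libraries in each assay.

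Footprints followed RNA, less closely among expressed genes alone. Across the 13016 and 13025 genes detected in both assays, the Spearman correlation of footprint TPM with RNA TPM was 0.914 in replicate 1 and 0.897 in replicate 2. Over genes with at least 10 TPM of RNA it was 0.813 (7583 genes) and 0.770 (7414 genes). These values are a description across genes that share the libraries. Around this trend the ratio spread over 10.2-fold between the 5th and the 95th percentile of tested genes, from −1.65 to 1.70 on the log2 scale, with a median of −0.06. Of 11166 genes, 1479 (13.2%) were called above the bulk and 1518 (13.6%) below it, 26.8% in all. With the 2 footprint libraries summed the calls were 1136 above and 957 below.

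The correction for length decides many of these calls, above all on the high side. Without it 498 genes (4.46%) were above and 1308 (11.7%) below. Of the 1479 genes called above, 281 were also called above without the correction, and of the 1518 called below, 724 were also below. Removing each library's trend with the GC content of coding sequences kept 917 and 798 of these calls. In all 4 versions 168 genes were called above and 436 below. The value without length correction is therefore given for named genes whose call it ends.

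**Figure D1:**
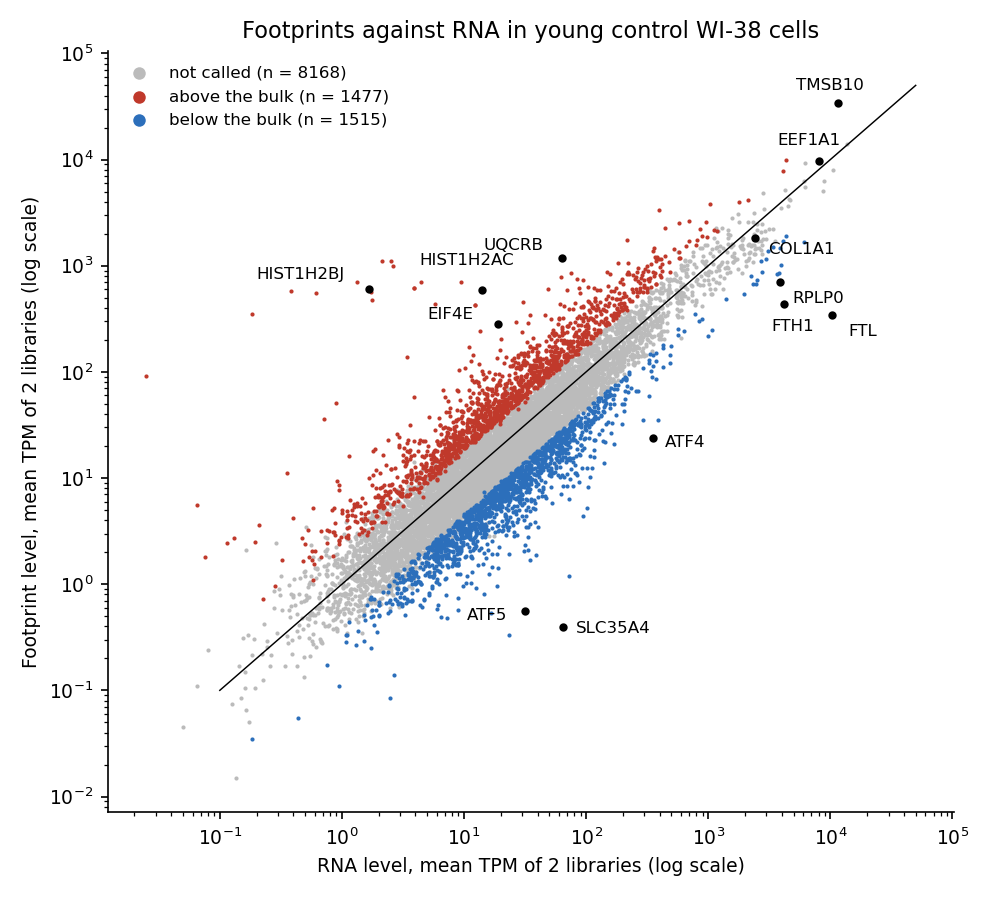
Mean footprint level against mean RNA level, both in TPM on log axes, for the 11160 tested genes with a level above 0 in both assays. Red points were called above the bulk, blue points below it, grey points were not called, and the line marks equal TPM. FTL, FTH1, ATF4, ATF5 and SLC35A4 lie far below the line and histone genes, UQCRB and EIF4E far above it.

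The most abundant poorly translated mRNAs encode ferritin, the cage that stores iron. FTL, the ferritin light chain, had RNA levels of 10135 and 10496 TPM in the 2 libraries, and footprint levels of 328 and 355 TPM. FTH1, the heavy chain, had 4382 and 3999.6 TPM of RNA and 417 and 450 TPM of footprints. Neither gene's libraries overlapped between assays. The ratio was −4.78 ± 0.25 (SE) for FTL (adjusted p = 1.04e-07), a level of footprints 27.5-fold under that of RNA relative to the bulk, and −3.13 ± 0.21 for FTH1 (adjusted p = 5.93e-07), 8.78-fold under. Both held without length correction, at −4.50 and −3.30.

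Ferritin mRNAs carry an iron-responsive element in the leader, a hairpin with a CAGTGN loop that iron regulatory proteins bind when iron is low, which blocks initiation. The pattern searched, on the mRNA's strand, was C, 5 bases, CAGTGN and 5 bases, with the 5 bases before the loop able to pair with the 5 after it (G with T allowed), in the leaders of 1 GENCODE v29 transcript a gene. It occurred in 21 of 17515 leaders, 0.120%. Of the 11 tested genes with a match, 2 were called below, FTL and FTH1, against 13.6% of all tested genes, and none above. The 2 stretches are shown because the ferritins had the lowest ratios among very abundant mRNAs. They are 30 bases of the leader, 5′ to 3′, with the loop in capitals, at chr19:48965335-48965364 (+ strand) and chr11:61967573-61967602 (− strand) of GRCh38 for FTL and FTH1.
FTL: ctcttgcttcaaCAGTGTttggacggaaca
FTH1: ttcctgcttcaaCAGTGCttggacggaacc

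Of 9 tested mRNAs listed for such elements, 3 were below (33.3%, against 13.6% of all genes) and none above, with a median of −0.59 against −0.06 (−0.01 without length correction). The third member below was EPAS1, a hypoxia-inducible factor, at 181 and 159 TPM of RNA against 21.0 and 20.8 TPM of footprints and a ratio of −2.89 ± 0.28 (adjusted p = 1.05e-05). EPAS1 did not match the pattern searched, which says only that these letters are absent from the leader used. TFRC, the transferrin receptor, carries its elements behind the coding sequence, where they act on the stability of the mRNA. It had 115 and 69.0 TPM of RNA and 84.5 and 94.0 TPM of footprints, which overlapped, and a ratio of 0.09 ± 0.29 (adjusted p = 0.831). CDC14A, a phosphatase, was the highest of the list at 0.80 ± 0.42 (adjusted p = 0.150). The iron exporter SLC40A1 had 106 and 87 RNA counts and 3 and 7 footprint counts and was not tested.

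Among the lowest ratios were those of mRNAs with reading frames upstream of the main one (uORFs), several of which encode regulators of the integrated stress response, in which phosphorylated eIF2 lowers initiation and favours such mRNAs. SLC35A4, a member of the nucleotide sugar transporter family, had 60.7 and 68.8 TPM of RNA and 0.59 and 0.20 TPM of footprints, from 5 and 2 footprint counts. ATF5, a stress transcription factor, had 31.8 and 31.4 TPM of RNA against 0.41 and 0.70 TPM of footprints, from 3 and 6 counts. So few footprints leave these ratios imprecise, at −7.26 ± 0.55 for SLC35A4 (adjusted p = 1.31e-06) and −5.66 ± 0.42 for ATF5 (adjusted p = 1.08e-06).

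ATF4, the central transcription factor of the stress response, was far more abundant, at 316 and 385 TPM of RNA and 25.7 and 21.5 TPM of footprints. Its ratio was −3.77 ± 0.30 (adjusted p = 2.30e-06). DDIT3, the factor CHOP that ATF4 induces, had 35.6 and 31.3 TPM of RNA and 3.43 and 3.44 TPM of footprints. PPP1R15A, the stress-induced subunit (GADD34) that directs dephosphorylation of eIF2, had 97.8 and 127 TPM of RNA and 12.3 and 12.4 TPM of footprints. In none of these did a footprint library reach an RNA library. The ratios were −3.09 ± 0.38 for DDIT3 (adjusted p = 5.54e-05) and −3.06 ± 0.40 for PPP1R15A (adjusted p = 7.51e-05). MIEF1, a mitochondrial fission adaptor, stood at −1.64 ± 0.25 (adjusted p = 0.000233), with 23.1 and 26.7 TPM of RNA and 7.83 and 6.75 TPM of footprints.

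Upstream start codons in these leaders are shown with 30 bases of the GENCODE v29 transcript around 1 ATG (capitals) each, since the frames they open end ahead of the main start or run across it. The SLC35A4 leader of 1686 bases held 20 ATG, and the one shown, the third, opens a frame of 103 codons known to encode a small protein. In MIEF1 the third of 5 opens a frame of 70 codons, likewise known to be made into protein, that ends before the main start. In PPP1R15A the second of 2 opens 26 codons that end before it. In ATF4 the fifth of 7 opens 63 codons that overlap the main start out of frame. In ATF5 the second of 2 opens 59 such codons, and in DDIT3 the second of 2 opens 73. The first ATG of the DDIT3 transcript used is in frame with the main start (208 codons). Which of the frames shown are translated in these cells was not tested. On GRCh38 the stretches lie at chr5:140565169-140565198 (SLC35A4), chr22:39504217-39504246 (MIEF1), chr19:48872540-48872569 (PPP1R15A) and chr22:39521244-39521273 (ATF4), all on the + strand. Those of ATF5 (chr19:49929382-49930742, + strand) and DDIT3 (chr12:57517423-57517719, − strand) join 2 exons across an intron.
SLC35A4: ttcccagtgacacgATGtttccaatcacac
MIEF1: cctgccagtcccccATGgccccgtggagcc
PPP1R15A: cgcctgagggtgagATGaacgcgctggcct
ATF4: tcccgattctctagATGgccgatctagaga
ATF5: tccttgctgcagccATGgagtcttccactt
DDIT3: acacctgaaagcagATGtgcttttccagac

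Of the 20 mRNAs listed for uORFs and stress, 9 were below (45%, against 13.6%), 2 above (10%, against 13.2%) and 9 not called, with a median of −0.37. TRIB3, a pseudokinase induced by ATF4, IBTK and the nucleolar methyltransferase RRP8 were below by less, at −1.22, −1.12 and −1.03, and at −0.96, −0.54 and −0.26 without length correction. These 3 calls were lost with the footprint libraries summed. RRP8 turned to 0.91 with GENCODE lengths. Not all members were low. PPP1R15B, the constitutive partner of PPP1R15A with 2 upstream ATG of its own, was at −0.05 ± 0.35 (adjusted p = 0.927) and IFRD1 at −0.27 ± 0.30 (adjusted p = 0.503). The deubiquitinase UCHL1, among the 2 members with most footprints, was at 0.19 ± 0.26 (adjusted p = 0.595). CEBPB, a transcription factor read from several in-frame starts, was the highest at 1.76 ± 0.26 (adjusted p = 0.000221), with 13.7 and 17.7 TPM of RNA and 42.6 and 49.3 TPM of footprints, and 1.39 without length correction. MDM2, the ubiquitin ligase of p53, followed at 1.65 ± 0.38 (adjusted p = 0.00444) but was at 0.41 without length correction.

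**Figure D2:**
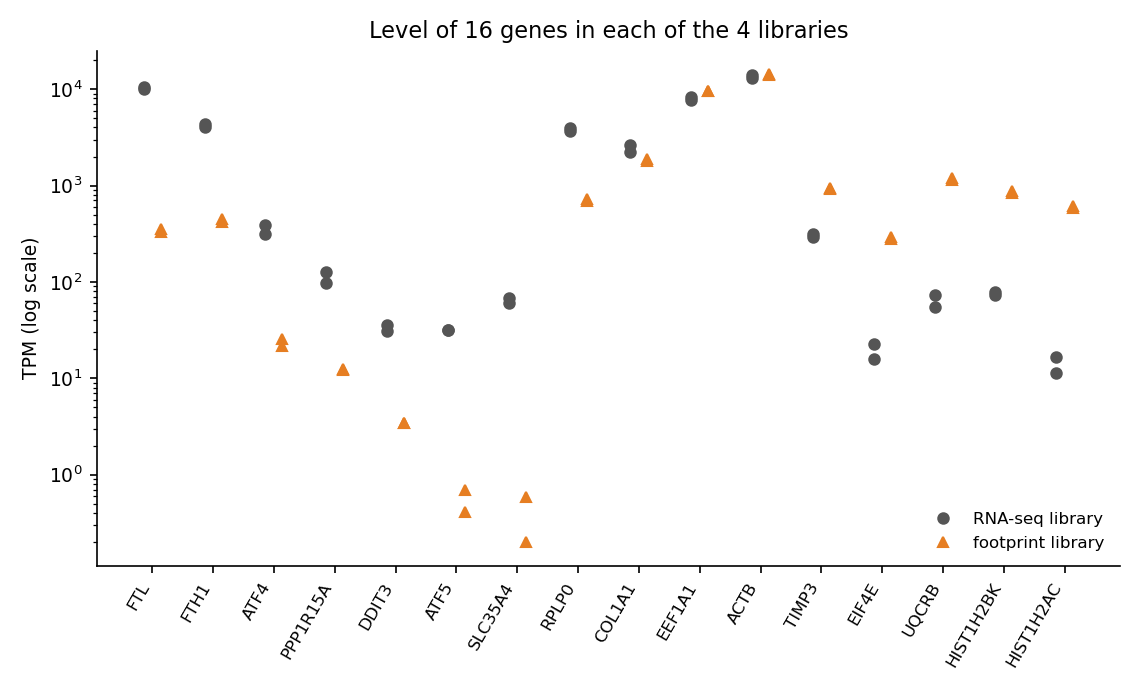
RNA level (grey circles) and footprint level (orange triangles) in TPM on a log axis for 16 genes, 1 point for each of the 2 libraries of an assay. Ferritin and stress mRNAs lie above their footprints in both libraries, EEF1A1 and ACTB lie near them, and UQCRB, EIF4E and the 2 histone genes lie below them.

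Across all genes the ratio fell in small steps with the number of upstream start codons. The median was 0.04 over the 5138 genes with none, −0.09 over the 2300 genes with 1, −0.13 over 1226 with 2, −0.25 over 1181 with 3 or 4 and −0.27 over 1104 with more than 4. The share called below was 10.1% with none and 20.7% with more than 4, and the share above 15.2% and 9.87%. The order of these medians was the same without length correction, where they went from 0.10 to −0.27, and with the GC trend removed, from 0.09 to −0.31. The range of medians is small beside the 10.2-fold spread of all genes, and the Spearman correlation over 10949 genes was −0.120.

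Other low genes named by their rank had no list of their own. Among genes with a mean RNA level of at least 10 TPM, of which 1129 were called below, the 12 lowest also held ST6GALNAC6, a sialyltransferase, at 62.8 and 81.5 TPM of RNA and 0.51 and 1.89 TPM of footprints (ratio −5.40 ± 0.60, adjusted p = 2.42e-05). MAP3K13, a kinase upstream of JNK, was at −4.62, C6orf62 at −4.28, the ubiquitin ligase MARCH4 at −4.22 and SLC25A23, a mitochondrial carrier, at −4.16. Leaders of C6orf62 and MARCH4 held 21 and 6 upstream ATG over 2168 and 1767 bases, and that of SLC25A23 held 0 over 107 bases. NBPF9 (−6.21) and NBPF15 (−4.18) belong to a family of near-identical copies, so their reads may be split differently in the 2 assays. NBPF9 had 17 footprint counts in replicate 1 and 0 in replicate 2. The remaining 2 of the 12, RPS10-NUDT3 and C7orf55-LUC7L2, are readthrough genes with 0 footprint counts that share exons with their single-gene neighbours.

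Few expressed genes lacked footprints altogether. Of 7511 joined genes with a mean RNA level of at least 10 TPM, 11 had 3 or fewer footprint counts over both libraries. LUZP6, whose reading frame lies within the MTPN transcript, had the highest RNA level, 88.0 TPM, with 6440 and 4848 RNA counts and 0 footprint counts. A count of 0 allows up to 3 counts, so its share of footprint counts was at least 993-fold lower than its share of RNA counts. C19orf48 (62.4 TPM) had 2 and 0 footprint counts, and LDLRAD2 (20.2 TPM) had 0. The others were NPIPA1, NPIPA5, NPIPA7 and NPIPA8, which are copies of 1 family, the 2 readthrough genes, MSMP and AHSA2. Reads of copies and overlapping genes can be given to a neighbour, so the absence of footprints is uncertain for those.

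Genes of polyamine metabolism tended low. Polyamines feed back on their own synthesis through translation, as in the frameshift of the antizyme OAZ1. Of 11 tested genes 3 were below (27.3%, against 13.6%), none above, and all 11 ratios were under 0, with a median of −0.90. SAT1, the polyamine acetylase, had 46.0 and 40.4 TPM of RNA and 5.84 and 7.69 TPM of footprints (ratio −2.54 ± 0.37, adjusted p = 0.000167). OAZ1 had 959 and 1195 TPM against 252 and 242 (ratio −1.99 ± 0.40, adjusted p = 0.00191). The spermidine synthase SRM was at −1.49 (−0.90 without length correction) and the ornithine decarboxylase ODC1 at −0.75 ± 0.49 (adjusted p = 0.253). AMD1 and AZIN1, at −0.76 and −0.90, missed the 2-fold limit but were called below without length correction (−1.69 and −1.52) and with the GC trend removed (−1.29 and −1.53). SMS, at −0.37, was the highest.

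Selenoproteins, whose mRNAs recode a stop codon as selenocysteine, were spread over both sides. Of 19 tested 6 were below (31.6%, against 13.6% of all genes) and 3 above (15.8%, against 13.2%), with a median of −0.18. SELENOW had the lowest ratio, −2.00 ± 0.29 (adjusted p = 0.000153), with 154 and 148 TPM of RNA and 34.4 and 33.4 TPM of footprints. The glutathione peroxidases GPX4 and GPX1 were at −1.84 ± 0.29 (adjusted p = 0.000286) and −1.32 ± 0.27 (adjusted p = 0.00218). With the GC trend removed GPX4 was at −1.23 and GPX1 at −0.62, no longer called. SELENOF (1.32) and SELENOH (2.05) were above but were at 0.15 and 0.91 without length correction. The thioredoxin reductase TXNRD1, with most footprints of the list, was at −0.18 ± 0.20 (adjusted p = 0.510).

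**Figure D3:**
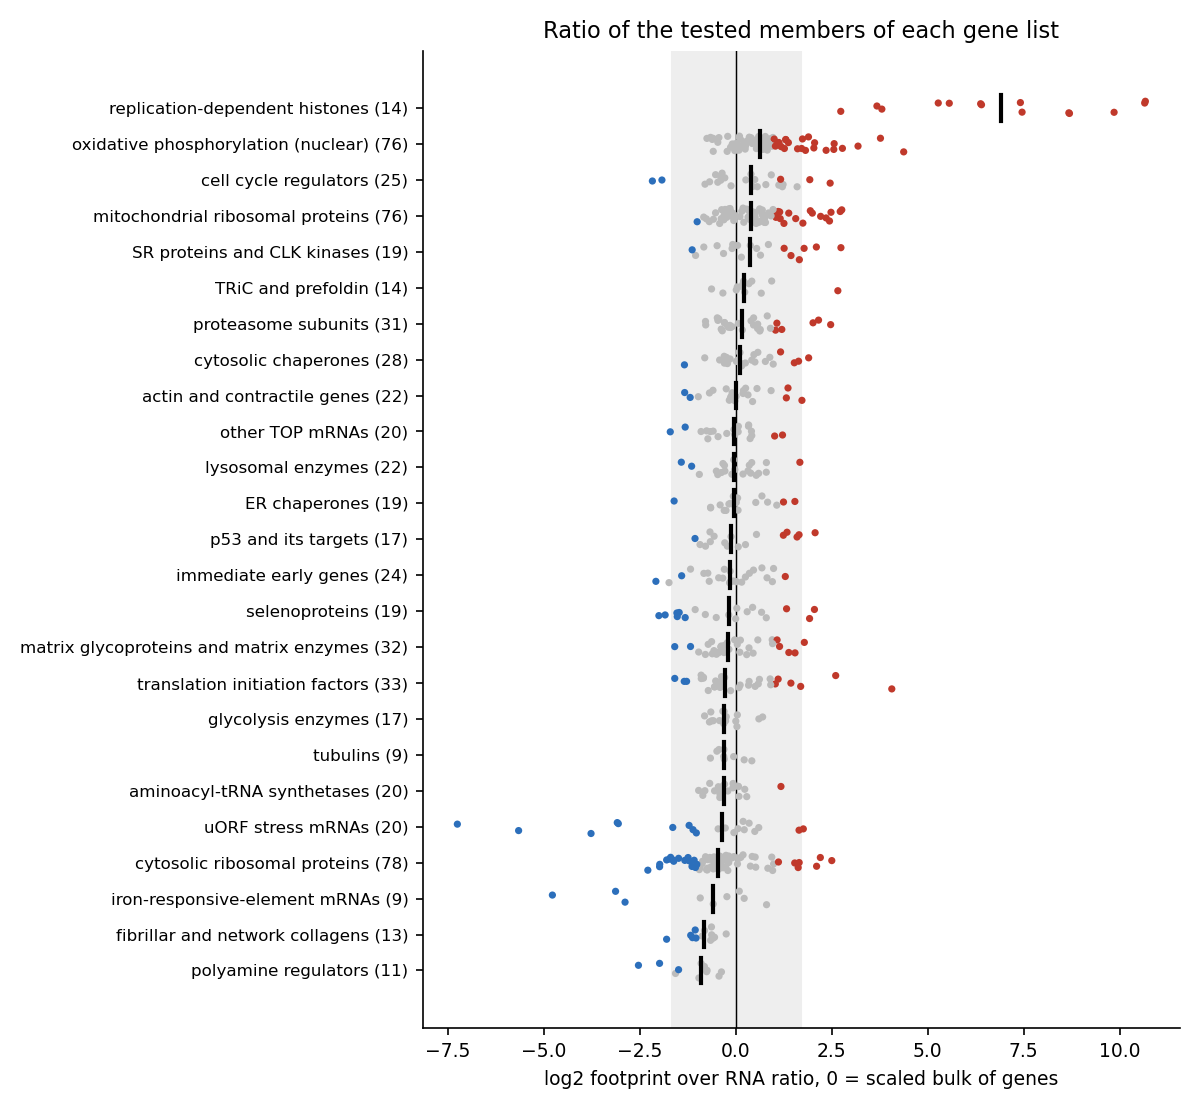
Ratio of each tested gene (points) in 25 lists, with the number tested in brackets, the median as a black bar and the 5th to 95th percentile of all tested genes in grey. Red and blue points were called above and below the bulk. All 14 replication-dependent histones lie beyond the grey band, and the 11 polyamine genes and 13 collagens all lie under 0.

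Most mRNAs of cytosolic ribosomal proteins had a ratio under 0. They begin with a C followed by a run of pyrimidines (the TOP motif) that makes their translation depend on mTOR signalling. Of 78 tested 17 were below (21.8%, against 13.6%), 7 above (8.97%, against 13.2%) and 54 not called, with 59 of 78 ratios under 0 and a median of −0.45. Without length correction the median was 0.05, with 5 below and none above, and with GENCODE lengths it was −0.10, with 14 below and 18 above. The sign of the group's median thus depended on the length used, while with the GC trend removed it stayed low at −0.56.

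RPLP0, of the ribosomal stalk, was the lowest, with 3697 and 3996 TPM of RNA and 723 and 690.4 TPM of footprints. Its ratio was −2.29 ± 0.28 (adjusted p = 5.13e-05), and −1.55 without length correction. RPS6, whose phosphorylation reports on growth signals, had 4082 and 3640 TPM of RNA and 1435 and 1495 TPM of footprints (ratio −1.24 ± 0.27, adjusted p = 0.00328) and was at −0.31 without length correction. RPL4 was at −1.21 ± 0.20 (adjusted p = 0.000384) and RPL7A at −0.87 ± 0.19 (adjusted p = 0.00282), the 2 members with most footprints. Without length correction RPL4 was at −0.26. RPS23 was the highest, with 436 and 454 TPM of RNA and 2184 and 2351 TPM of footprints and a ratio of 2.50 ± 0.32 (adjusted p = 6.06e-05). Without length correction RPS23 stood at 0.42, and its GENCODE transcript has a 3′ UTR of 2754 bases, against 77 bases in RPLP0. Low members chosen after their values were seen were RPS2 (−1.99), RPS12 (−1.98), RPLP1 (−1.80) and RPS18 (−1.73). Without length correction RPS2 and RPS18 were at −0.99 and −0.97, short of the 2-fold limit.

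A start-site window was taken from RefSeq (GRCh38.p14) for 9346 tested genes, and a run was counted where a C within 3 bases of the start, on the gene's strand, began at least 5 pyrimidines. Such a run stood at 47 of 63 ribosomal protein genes (74.6%) against 14.8% of all 9346. Among ribosomal protein genes the median ratio was −0.56 with a run and −0.31 without. Of the 47 with a run 13 were below and 3 above, where 21.8% and 8.97% of all 78 were. Over all genes these medians were −0.12 and −0.06. Of the 1387 genes with a run 221 were below and 161 above, where 13.6% and 13.2% of all 11166 tested genes were. Shown are 10 bases before and 20 from the annotated start, with the run in capitals, for low members (RPLP0, RPS12, RPLP1, RPS18), a high member (RPS23) and a TOP mRNA of another kind called above (TPT1). They lie at chr12:120201092-120201121 (−), chr6:132814559-132814588 (+), chr15:69452808-69452837 (+), chr6:33272065-33272094 (+), chr5:82278335-82278364 (−) and chr13:45341164-45341193 (−).
RPLP0: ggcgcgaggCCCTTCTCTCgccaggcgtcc
RPS12: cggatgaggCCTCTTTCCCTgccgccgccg
RPLP1: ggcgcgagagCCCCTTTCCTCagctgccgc
RPS18: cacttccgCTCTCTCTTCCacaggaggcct
RPS23: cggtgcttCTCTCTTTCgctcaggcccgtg
TPT1: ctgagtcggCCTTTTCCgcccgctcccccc

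Other TOP mRNAs did not share a direction. Of 20 tested 2 were above (10%, against 13.2% of all genes), 2 below (10%, against 13.6%) and 16 not called, with a median of −0.04. EEF1A1, the elongation factor that delivers tRNA, had 7723 and 8307 TPM of RNA and 9644 and 9632 TPM of footprints (ratio 0.42 ± 0.28, adjusted p = 0.260). EEF2 was at −0.76 ± 0.30 (adjusted p = 0.0620) and VIM, the intermediate filament vimentin, at 0.07 ± 0.27 (adjusted p = 0.872). EEF1G was the lowest at −1.71 ± 0.27 (adjusted p = 0.000314), and at −0.82 without length correction. The poly(A)-binding protein PABPC1 had 575 and 407 TPM of RNA and 180 and 171 TPM of footprints (ratio −1.32 ± 0.35, adjusted p = 0.00996). Its call was lost with either footprint library left out and without RNA replicate 1, where the ratio was −1.09, and without length correction, at −0.78. NAP1L1, a histone chaperone, was highest at 1.22 (0.62 without length correction), and TPT1, a growth-related protein with a TOP start, was at 1.01 ± 0.27 (adjusted p = 0.0110) but at −1.22 without length correction. Both lost their calls with the footprint libraries summed.

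Translation initiation factors were mixed as well, with 6 of 33 above (18.2%, against 13.2% of all genes), 3 below (9.09%, against 13.6%) and a median of −0.29. The scaffold EIF4G1 was the lowest at −1.59 ± 0.19 (adjusted p = 4.62e-05), with 227 and 210 TPM of RNA and 65.4 and 63.7 TPM of footprints. Its relative EIF4G2, which initiates without the cap-binding step, was at −1.34 ± 0.19 (adjusted p = 0.000124). The helicase EIF4A1 was at 0.11 ± 0.20 (adjusted p = 0.684). EIF4E, the cap-binding protein itself, was the highest, with 22.5 and 15.8 TPM of RNA and 281 and 289 TPM of footprints and a ratio of 4.06 ± 0.26 (adjusted p = 4.94e-07). Without length correction EIF4E was at 0.95, EIF4G1 at −0.63 and EIF4G2 at −0.74, and no factor was called above.

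Replication-dependent histones had by far the highest ratios. Their mRNAs end in a conserved stem-loop rather than a poly(A) tail, are made in S phase and are degraded when it ends. All 14 tested members of the list were above (100%, against 13.2%), with ratios of 2.73 to 10.7 and a median of 6.91. HIST1H3H, the highest, rests on 3 and 0 RNA counts. Members with counts this low passed the count filter through other groups, so the share of 100% is not independent of the filter. All 14 calls were kept without length correction, with the GC trend removed and with the footprint libraries summed. HIST1H2AC had 11.3 and 16.7 TPM of RNA and 607 and 583 TPM of footprints, which gave a ratio of 5.56 ± 0.63 (adjusted p = 2.91e-05). HIST1H1C, a linker histone, had 72.6 and 24.9 TPM of RNA, the widest gap between RNA replicates among those named, and 596 and 616 TPM of footprints (ratio 3.81 ± 0.67, adjusted p = 0.000752). HIST1H2BK was at 3.68 ± 0.37 (adjusted p = 1.22e-05) and HIST3H2A, the lowest, at 2.73 ± 0.70 (adjusted p = 0.00780). HIST3H2A had 12 and 12 RNA counts and did not pass the filter on the young RNA libraries alone. HIST2H2AA3 and HIST2H2AA4 are identical copies with the same values in every library, 12.4 TPM of RNA in replicate 1 and 440 and 422 TPM of footprints.

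Most histone genes had too little RNA signal for a test. Of 70 clustered histone genes in the joined table, chosen by name after values were seen, 19 had 0 RNA counts and 40 had 0 to 3, while 64 had at least 100 footprint counts. Their summed footprint counts were 81885 and 97341, and their summed RNA counts 3095 and 1780. They made up 1.06% of footprint counts and 0.00748% of RNA counts, as means of the 2 libraries. Taken over the counts of joined genes, the share of footprints was 125-fold that of RNA in replicate 1, 163-fold in replicate 2 and 139-fold with both pooled. For the 14 genes with 0 RNA counts and at least 100 footprint counts, the share of footprint counts was at least 342-fold to at least 6741-fold higher than the share of RNA counts. Among these HIST1H3F had 2446 and 2893 footprint counts, HIST1H1D 1463 and 1910 and HIST1H4A 450 and 504. Copies of histone genes are close to identical, so single genes are uncertain and the sum is firmer. The sources used here do not state whether the RNA libraries were selected for poly(A) tails, and the part of such a selection in these ratios was not tested. The 11 histone variants that are made with poly(A) tails, also chosen afterwards, had a median of 0.98. Of these 3 were above (27.3%, against 13.2% of all genes) and none below. Without length correction their median was −0.05, with 1 above and none below. With GENCODE lengths it was 0.29, with 2 above and 1 below, and with the GC trend removed 1.39, with 6 above and none below.

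The stem-loop was searched as GGNNC followed directly by TTTTN and AGNNCC, behind the stop codon of the GENCODE transcripts, on the mRNA's strand. It was in 29 of the 70 histone genes and in 10 of the other joined genes. Together these 39 genes are 0.215% of the 18105 joined genes with at least 16 bases there. The 70 histone genes were not limited to transcripts with that many bases. No match, as in HIST1H1C and HIST1H2BK, says only that these letters are absent from the transcript used. The 3 examples are shown because this end is the hallmark of the group with the highest ratios, with the stem-loop in capitals, at chr6:26124662-26124691 (+), chr1:149842216-149842245 (−) and chr6:26285124-26285153 (−) of GRCh38.
HIST1H2AC: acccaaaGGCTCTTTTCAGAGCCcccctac
HIST2H2AA3: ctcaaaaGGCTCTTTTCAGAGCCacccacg
HIST1H4H: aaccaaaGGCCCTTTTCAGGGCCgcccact

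Outside the histones, the highest ratios among called genes with at least 10 TPM of RNA were those of 7 genes, EIF4E and 6 with short coding sequences. UQCRB, a subunit of respiratory complex III, had 72.8 and 54.6 TPM of RNA and 1140 and 1208 TPM of footprints (ratio 4.37 ± 0.29, adjusted p = 5.34e-07). GTF2H5, a small subunit of TFIIH, was at 4.32 ± 0.26 (adjusted p = 3.08e-07), MCTS1, a factor of re-initiation and recycling, at 4.12, the MICOS subunit MINOS1 at 4.03, cytochrome c (CYCS) at 3.81 and NDUFA5, of complex I, at 3.77. Every footprint library exceeded both RNA libraries for these 6 genes. Without length correction they were at 1.26, −0.37, 0.88, 0.67, 0.41 and 0.43 in the same order, and UQCRB alone of the 6 was still called above. Their GENCODE transcripts have coding sequences of 213 to 543 bases. The 3′ UTR is 5138 bases in UQCRB, 7190 in GTF2H5, 3422 in MINOS1 3613 in CYCS, 1093 in NDUFA5 and 218 in MCTS1.

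Among nuclear genes of oxidative phosphorylation, calls were above the bulk and none below. Of 76 tested 24 were above (31.6%, against 13.2%), and 52 not called, with 62 ratios over 0, 14 under 0 and a median of 0.62. Of the 24, 8 were called above without length correction, 17 with the GC trend removed (which has a value for 61 of the 76) and 22 with the footprint libraries summed. NDUFA4, a cytochrome oxidase subunit added after its values were seen, had 220 and 210 TPM of RNA and 1795 and 1732 TPM of footprints, a ratio of 3.18, and 0.68 without length correction. The lowest member was UQCRC1, a core subunit of complex III, at −0.75 ± 0.20 (adjusted p = 0.00992). The members with most footprints, the ATP synthase subunits ATP5A1 and ATP5B, were at −0.02 ± 0.23 (adjusted p = 0.957) and −0.61 ± 0.19 (adjusted p = 0.0235).

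Mitochondrial ribosomal proteins, encoded in the nucleus and translated in the cytosol, also had more calls above than below, with 17 of 76 above (22.4%, against 13.2% of all genes), 1 below (1.32%, against 13.6%) and a median of 0.39, and 5 of the 17 were called above without length correction. MRPL19 was the highest at 2.76 ± 0.27 (adjusted p = 1.14e-05) with 15.1 and 10.8 TPM of RNA against 77.7 and 79.9 TPM of footprints, and at 0.64 without length correction. MRPS15 was the only member below, at −1.01 ± 0.19 (adjusted p = 0.00136), and fell short of the 2-fold limit under 9 alternatives, among them no length correction (−0.25). MRPL3 and MRPL51, with most footprints, were at 0.11 and −0.12. The 13 mRNAs that mitochondria encode and translate themselves had no row in the Ribo-seq table and were not analysed here.

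Splicing factors of the SR family and their kinases had 6 of 19 above (31.6%, against 13.2% of all genes), 1 below (5.26%, against 13.6%) and a median of 0.38. SRSF10 was the highest, with 36.1 and 29.7 TPM of RNA and 191 and 196 TPM of footprints and a ratio of 2.74 ± 0.25 (adjusted p = 5.86e-06). TRA2B and SRSF3 were at 2.10 and 1.78, and the kinase CLK2 at −1.14 ± 0.31 (adjusted p = 0.0114). The call of CLK2 was lost with the footprint libraries summed (−1.15) and without length correction (−0.57). None of the 6 was called above without length correction, where SRSF10 was at 0.49, TRA2B at 0.76 and SRSF3 at −0.01. Proteasome subunits had 6 of 31 above (19.4%, against 13.2%), none below and a median of 0.17. PSMB2 was at 2.47 ± 0.27 (adjusted p = 2.42e-05) and 0.32 without length correction, and PSMD2 at −0.79 ± 0.22 (adjusted p = 0.0132).

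Of 13 tested collagens, a main secreted product of fibroblasts, 5 were below (38.5%, against 13.6% of all genes), none above and 8 not called, and all 13 ratios were under 0, with a median of −0.82. Without length correction none was called below and the median was 0.06, and with the GC trend removed or the footprint libraries summed 1 of the 5 was. COL1A1 had 2202 and 2664 TPM of RNA and 1864 and 1806 TPM of footprints, a ratio of −0.25 ± 0.42 (adjusted p = 0.673) that was the highest of the list. COL1A2 was at −0.55 ± 0.25 (adjusted p = 0.0928). COL4A2, of basement membranes, was the lowest, with 441 and 419 TPM of RNA and 113 and 109 TPM of footprints and a ratio of −1.80 ± 0.27 (adjusted p = 0.000197), and −0.98 without length correction. COL3A1 was at −1.06 ± 0.33 (adjusted p = 0.0222), a call lost with the footprint libraries summed and without length correction (−0.23).

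Other matrix genes went both ways, with 5 of 32 above (15.6%, against 13.2%), 2 below (6.25%, against 13.6%) and a median of −0.20. TIMP3, an inhibitor of matrix proteases, was the highest, with 314 and 290 TPM of RNA and 946 and 925 TPM of footprints and a ratio of 1.79 ± 0.16 (adjusted p = 6.49e-06), but it was at −0.36 without length correction. Thrombospondin THBS1 had 809 and 782 TPM of RNA and 1612 and 1547 TPM of footprints, at 1.14 ± 0.36 (adjusted p = 0.0244) and 1.24 without length correction. Its call was lost with the footprint libraries summed. The proteoglycan DCN was at 1.38 ± 0.28 (adjusted p = 0.00192) and 0.28 without length correction. The adhesion-modulating tenascin TNC was the lowest, with 405 and 269 TPM against 107 and 95.4 TPM and a ratio of −1.59 ± 0.23 (adjusted p = 0.000181), and −0.80 without length correction. Fibronectin FN1 was at −0.61 ± 0.26 (adjusted p = 0.0757), with RNA levels of 2038 and 1239 TPM that differed more between replicates than its footprints, at 1356 and 1254.

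By counts, actins and EEF1A1 took the largest shares of footprints. The 12 genes with the largest shares held 9.90% of footprint counts and 8.23% of RNA counts. ACTB alone held 1.81% of footprint counts, followed by EEF1A1 (1.55%), ACTG1 (1.03%), COL1A1 (0.976%), GAPDH (0.715%), VIM (0.696%) and THBS1 (0.668%). The share of RNA counts was 1.26% for ACTB and 0.299% for THBS1, which was the only 1 of the 12 called above the bulk. COL1A2, FN1, ITGB1, ANXA2 and TGFBI completed the 12, and none of these was called. By TPM the same 12 genes held 5.50% of the footprint signal, and the 12 largest by TPM held 12.1%. The small actin-binding peptide TMSB10 had 10559 and 12573 TPM of RNA and 34436 and 34027 TPM of footprints (ratio 1.72 ± 0.31, adjusted p = 0.000915) and was at −0.33 without length correction. The crosslinker FLNA was the lowest contractile gene at −1.33 ± 0.21 (adjusted p = 0.000299), and at −0.26 without length correction.

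Glycolytic enzymes stayed with the bulk. None of 17 was called, with ratios of −0.81 (PFKL) to 0.70 (GPI) and a median of −0.30. GAPDH had 9406 and 8242 TPM of RNA and 6469 and 6130 TPM of footprints, at −0.34 ± 0.19 (adjusted p = 0.175), and PKM was at −0.27 ± 0.22 (adjusted p = 0.365). None of 9 tubulins was called either, with a median of −0.31. Of 20 aminoacyl-tRNA synthetases 1 was above (5%, against 13.2% of all genes) and none below (against 13.6%). Cytosolic chaperones had 4 of 28 above (14.3%, against 13.2%) and 1 below (3.57%, against 13.6%), with a median of 0.11. HSPA8 was at −0.42 ± 0.21 (adjusted p = 0.124), HSP90AB1 at −0.24 ± 0.24 (adjusted p = 0.462) and HSF1, the heat shock transcription factor, lowest at −1.34 ± 0.31 (adjusted p = 0.00471). The call of HSF1 was lost without length correction (−0.68) and with the GC trend removed (−0.62). Endoplasmic reticulum chaperones had 2 of 19 above (10.5%, against 13.2%) and 1 below (5.26%, against 13.6%). HSPA5 was at 0.52 ± 0.26 (adjusted p = 0.140). XBP1, whose mRNA is spliced at the reticulum membrane under stress, had 114 and 121 TPM of RNA and 38.2 and 33.1 TPM of footprints (ratio −1.61 ± 0.20, adjusted p = 4.90e-05), and remained below without length correction, at −1.20.

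Regulators of the cell cycle had 3 of 25 above (12%, against 13.2% of all genes), 2 below (8%, against 13.6%) and a median of 0.39. CCND1, cyclin D1, had 694 and 596 TPM of RNA and 1106 and 1103 TPM of footprints, and its ratio of 0.92 ± 0.16 (adjusted p = 0.000737) fell short of 2-fold. The inhibitor CDKN1A (p21) was at −0.12 ± 0.31 (adjusted p = 0.781). E2F1 was the lowest at −2.17 ± 0.62 (adjusted p = 0.0144), a call lost with the footprint libraries summed. Targets of p53 had 5 of 17 above (29.4%, against 13.2%), 1 below (5.88%, against 13.6%) and a median of −0.12. None of the 5 was called above without length correction. MDM4 was the highest at 2.07 ± 0.54 (adjusted p = 0.00913), with −0.36 without length correction, and FDXR the lowest at −1.06 ± 0.23 (adjusted p = 0.00276), with −0.36 without length correction and −0.38 with the GC trend removed. Immediate early genes had 1 of 24 above (4.17%, against 13.2%) and 2 below (8.33%, against 13.6%). JUN was at 0.15 ± 0.31 (adjusted p = 0.724), and FOS, with 45 and 35 RNA counts and 6 and 4 footprint counts, at −1.18 ± 1.05 (adjusted p = 0.401). Of 22 lysosomal genes 1 was above (4.55%, against 13.2%), LAMP2 at 1.67 ± 0.17 (adjusted p = 1.54e-05). A further 2 were below (9.09%, against 13.6%), among them MAN2B1 at −1.42 ± 0.26 (adjusted p = 0.000965). Without length correction none of the 22 was called, with LAMP2 at 0.87 and MAN2B1 at −0.36, and neither of the 2 calls below was kept with the GC trend removed.

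The ratio moved with several features of the transcript. Median coding length was 891 bases among genes called above, 1983 among those below and 1422 over all tested, with 1 GENCODE v29 transcript for 10949 genes. Over genes with a coding sequence of up to 300 bases the median ratio was 0.99, and over those above 2400 bases −0.48. Without length correction these medians were −0.49 and 0.06, so the trend turned round. The Spearman correlation with coding length was −0.347 with the correction and 0.0946 without. Median 3′ UTR length was 2592 bases above and 748 below. Genes with a 3′ UTR over 4000 bases had a median of 0.69 with the correction and −0.06 without.

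GC content of the coding sequence went with the ratio in either case. Its median was 45.1% among genes above and 59.9% among genes below, and the Spearman correlation over 10949 genes was −0.477 with length correction and −0.470 without. Genes under 40% GC had a median ratio of 0.54 and genes over 60% one of −0.72, with 1.15% and 31.6% of them called below. With each library's GC trend removed, 1173 genes (10.7%) were above and 1111 (10.1%) below. GC content also affects sequencing yield in either assay, and its part in these ratios was not tested.

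**Figure D4:**
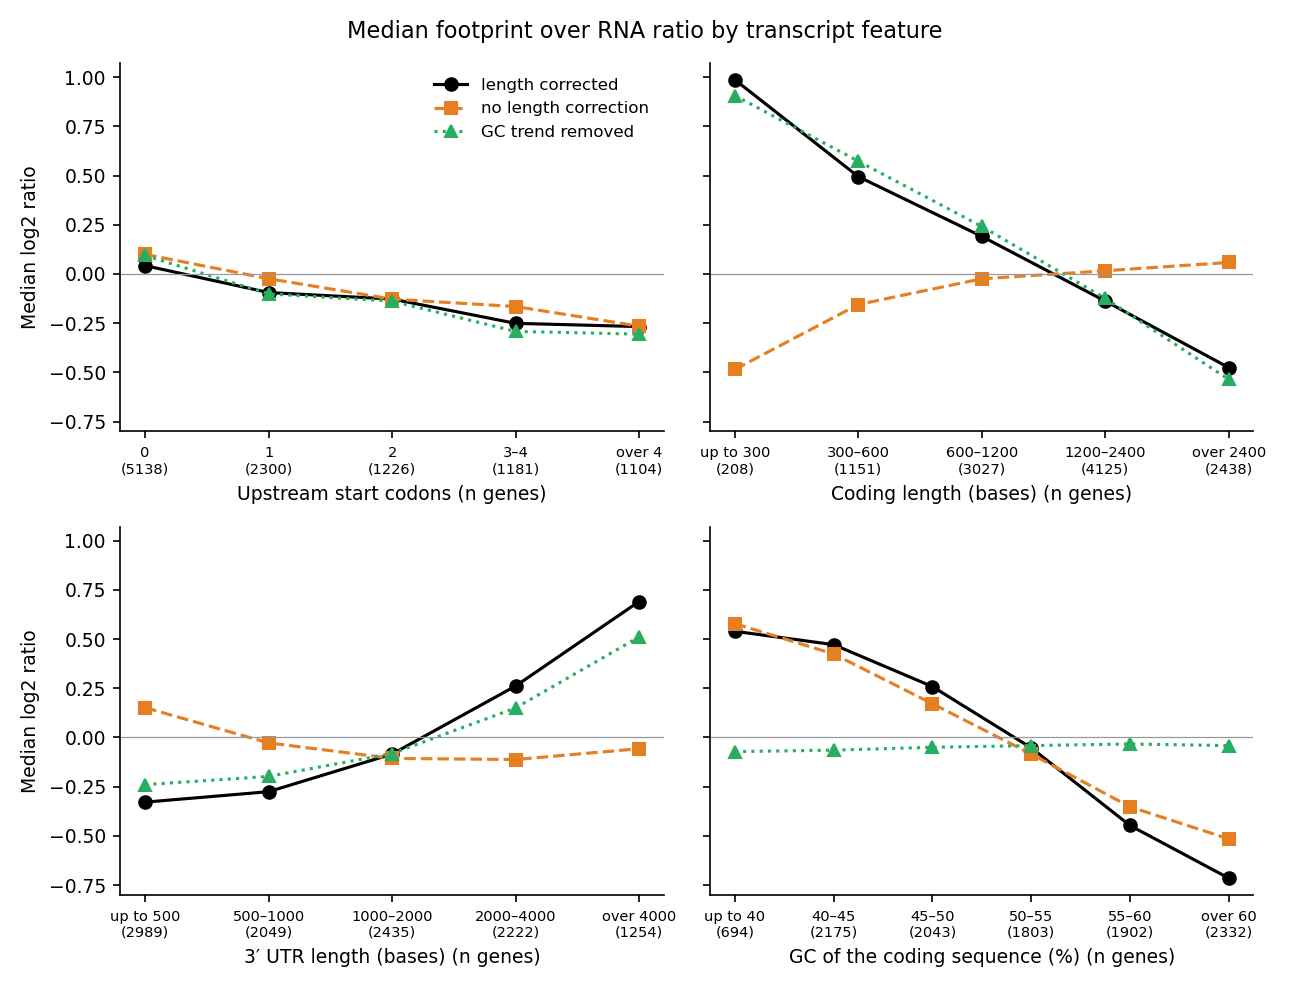
Median log2 ratio of genes grouped by upstream start codons, coding length, 3′ UTR length and GC content of the coding sequence, with the number of genes in brackets. Black circles are the ratio as reported, orange squares without length correction and green triangles with the GC trend removed. The trend with upstream start codons is the same in all 3, those with length change without the correction, and that with GC is level only where it was removed.

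The ratios of senescent control cells followed those of young ones. Over 11166 genes the Spearman correlation of the young with the senescent ratio was 0.907, and the median size of the difference 0.23. Of the 1479 genes above in young cells, 1473 had a senescent ratio over 0, and of the 1518 below, 1517 had one under 0. The difference between senescent and young ratios passed the adjusted p of 0.05 for 1 gene (0.00896%), BOLA2B, while 89 genes had an unadjusted p under 0.05 and DESeq2 called 6. FTL was at −5.55 in senescent cells against −4.78, ATF4 at −4.10 against −3.77 and UQCRB at 4.19 against 4.37. The median of the ribosomal protein genes was −0.59 against −0.45. Among the lists, histones had the largest median difference, −2.37. The senescent ratio was lower for all 14 tested members, with differences of −4.22 to −1.49. Their median ratio was 4.76 against 6.91, and 12 of them had an unadjusted p under 0.05. None of the 14 passed the adjusted threshold, the smallest adjusted p being 0.415. HIST1H3H (3 and 0 young RNA counts), HIST1H2AE (8 and 3) and HIST1H3D (6 and 5) passed the count filter only through other groups. HIST1H2BJ (10 and 13) and HIST3H2A (12 and 12) were short of it in young RNA replicate 1, so they needed other groups too. Such members tend to a lower ratio where RNA is higher, so 14 of 14 is no support for a difference. Clustered histone genes held 0.244% and 0.661% of footprint counts in the 2 senescent libraries, under the 1.05% and 1.07% of the young ones, and 0.0205% and 0.0175% of RNA counts against 0.00839% and 0.00657%.

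**Figure D5:**
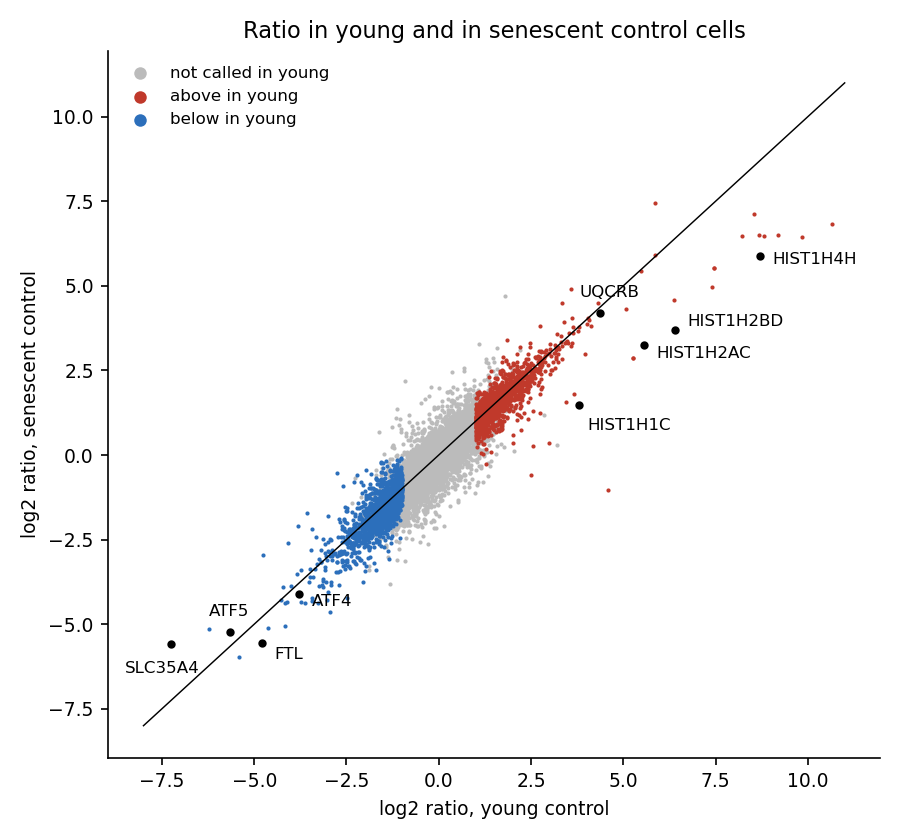
Log2 footprint over RNA ratio in senescent control cells against that in young control cells, for the 11115 genes with over 3 counts in each assay of each group, coloured by the call in young cells, with the line of equal ratios. Most genes lie along the line, and the histone genes lie below it.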

How the data were processed

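For both assays the authors deposited, per gene, expected counts (whole numbers here) and TPM. STAR, RSEM, Bowtie2 and hg19 are listed, without roles, in the submitters' processing notes, and no source used here gives the annotation. Effective lengths were recovered from the ratio of each count to its TPM. Footprint lengths followed GENCODE v29 coding lengths (Spearman 0.980) and RNA lengths transcript lengths (0.845). Counts of all 16 libraries in 8 groups, with these lengths as offsets, were filtered (filterByExpr, minimum count 10, in both assays), given TMM factors and modelled in edgeR 4.0.16 (quasi-likelihood test, 8 residual degrees of freedom) in R 4.3.3. P-values were Benjamini-Hochberg adjusted over 11166 genes. Alternatives used DESeq2 1.42.0 and limma 3.58.1 on log2(TPM + 1) values made from the deposited TPM. On simulated data 16 of 100 genes set at 2-fold and 78 of 100 at 4-fold passed an adjusted p under 0.05, with no fold limit. So did 4 of the 10966 unchanged genes. The set genes were changed in young footprints only and were few, while 26.8% of genes were called in the data. Bounds taken from counts of 0 cover counting error only. The SE also takes in the spread between libraries, pooled over all groups.

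Named were the 12 highest and 12 lowest called genes with at least 10 TPM of RNA, the 12 with most footprints, a panel, and of each list the extremes and the 2 members with most footprints; not all are printed. The members, lists and this rule were chosen with earlier results of these data known, so agreement of a list with them is not independent support. IBTK, MIEF1, TRIB3, RRP8, EPAS1 and SRM were named after their values were seen, as were genes so marked in the text. Symbols were matched to GENCODE (GRCh38) for 10949 tested genes. Sequences come from GENCODE v29 transcripts and RefSeq start windows, and the files' hg19 coordinates were not used. One item is not reported here.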

Additional observations from a re-analysis of the deposited data

Results flagged for a closer look

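BOLA2B, a copy of the iron-sulphur cluster factor BOLA2, is listed because its ratio differed between senescent and young control cells by the test of the difference itself (edgeR, adjusted p = 0.00213). The fitted difference, −8.05 on the log2 scale, depends on the prior count and is no bound, since BOLA2B had 0 RNA counts in both young libraries and 73 and 41 in the senescent ones. Its footprint counts, 178 and 209 in young and 88 and 139 in senescent libraries, were identical to those of BOLA2, which had 825 and 656 RNA counts in young and 707 and 725 in senescent libraries.

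RNA signal outside the comparison is the other result. Genes with no row in the Ribo-seq table held 5.66% of RNA TPM on average (5.46% and 5.85%) but 0.616% and 0.662% of RNA counts. The largest was MIR6723, at 27212 and 29213 TPM from 20117 and 16467 counts, followed by MIR4461 (5962 TPM on average) and RPL41, a short ribosomal protein gene, with 42253 and 36567 counts and 5637 TPM on average.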

How the results depend on the processing

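The numbers called above and below stayed within 1.5 times the main 1479 and 1518 under all alternatives run except these. Without length correction 498 were above, with edgeR's test against a 2-fold ratio (glmTreat) 489 above and 402 below, and with the young footprint libraries summed 957 below. Without young footprint replicate 1 or 2, 949 and 943 were below. Leaving out 1 library at a time gave 1015 to 1516 above and 943 to 1579 below. The number of genes whose ratio differed between senescent and young cells was 1, and became 2 with no filter, 6 with DESeq2, 0 and 3 with limma on log2(TPM + 1) and log2(TPM + 0.1), 5 with only the 8 control libraries and 3 with the GC trend removed. Leaving out 1 control library gave 1 to 21, with 21 without senescent footprint replicate 2. With the replicate number as a block 1652 were above, 1625 below and 4 differed between senescent and young cells, and 4 also with the block and GC trend removed. The labels do not say what the numbers pair, and across genes the RNA and footprint deviations of same-numbered libraries correlated at −0.001 in young and 0.232 in senescent cells.

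Of 120 named genes, 7 changed sign in 1 alternative each while called in the main fit or in that alternative. Sign changes of genes called in neither were not counted. Without length correction these were TPT1 (−1.22), GTF2H5 (−0.37), TIMP3 (−0.36), TMSB10 (−0.33), SRSF3 (−0.011) and MDM4 (−0.36), and with GENCODE lengths RRP8 (0.91). Of their 3103 values, 168 lost and 31 gained a call. The cause of these changes was not tested, and counts of a few footprints limit SLC35A4, ATF5 and NBPF9.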
